A study of Mus musculus with 10 samples.

Results

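The regions described here are stretches of open chromatin that mouse bone marrow stromal cells expressing stem cell factor kept when they were taken into culture. Overlapping peaks of 10 ATAC-seq libraries were merged into 201290 union regions on chromosomes 1 to 19 and X. A region counted as open in a library that had any overlapping peak. The 4319 mesenchymal core regions, 2.15% of the total, were open in both Scf-GFP-positive libraries, all 3 control stroma libraries and all 3 rMSC libraries, and in neither Scf-GFP-negative library. The members were thus chosen by whether a peak was called, so their presence and absence are a description and not a finding. Position, neighbouring genes and sequence were not used to choose them. Strength of the peak entered through the peak call alone, and its order between the 3 groups with peaks was not used.

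The study used 4 groups of C57BL/6J cells. rMSC (n = 3), the submitters' revitalized MSCs, were cultured stroma that had received 5 genes by transduction, namely Klf7, Ostf1, Xbp1, Irf3 and Irf7. Control stroma (n = 3) was cultured stroma that had received a control vector. Per the growth protocol, cultures were seeded with CD45-, Ter119-, CD31- and Scf-GFP+ marrow cells in alpha-MEM with serum, FGF-basic, L-glutamine and antibiotics, so both cultured groups share the sort for the reporter, a transduction and growth in culture. Scf-GFP marks cells that transcribe Kitl. Scf-GFP-positive stroma (n = 2) was freshly sorted by the same markers, and Scf-GFP-negative stroma (n = 2) was sorted from the CD45-, Ter119- and CD31- cells without the reporter signal; neither received a vector. Whether libraries of a group stem from different mice or dishes is not stated, and the p-values below measure no more than the spread among these libraries, part of which may be technical. Each library holds many cells, and fewer cells with an open site cannot be told apart from a site that is less open in each cell.

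ATAC-seq tags DNA that is free of nucleosomes, which marks active promoters and distal enhancers. Promoters of housekeeping genes are open in nearly every cell type, whereas distal enhancers are opened by transcription factors of a lineage and differ between cell types. In mesenchymal cells such enhancers are often bound by AP-1, RUNX and TEAD factors, the last being the DNA-binding partners of YAP and TAZ, which respond to stiffness and spreading. Stromal cells of the marrow also form the niche of blood stem cells through Kitl (stem cell factor) and Cxcl12, the chemokine that retains them.

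Promoter sequences are shown for 8 genes whose start lay in a core region and whose peak strength is described below. They stand for niche factors (Kitl, Cxcl12), a mesenchymal transcription factor (Twist1), the YAP and TAZ pathway (Wwtr1, Ccn1, Vgll3), contraction (Cald1) and collagen (Col6a1). Each line gives the 250 bases before a listed start of the gene, 5′ to 3′, from RefSeq on GRCm38.p6. For Kitl and Cald1 that start lies inside the annotated gene, which begins within the window, at 100015615 and 34598495. Capitals mark every match, on either strand, of the KLF and SP motif GGGCGG, the TEAD motif GGAATG or the AP-1 motif TGANTCA. The windows are Kitl (chr10:100015571-100015820, plus strand), Cxcl12 (chr6:117168285-117168534, plus strand), Twist1 (chr12:33957421-33957670, plus strand) and Wwtr1 (chr3:57575911-57576160, minus strand, 1 of 2 listed starts in the region). The others are Ccn1 (chr3:145649986-145650235, minus strand), Vgll3 (chr16:65814939-65815188, plus strand), Cald1 (chr6:34598254-34598503, plus strand) and Col6a1 (chr10:76726045-76726294, minus strand).
Kitl: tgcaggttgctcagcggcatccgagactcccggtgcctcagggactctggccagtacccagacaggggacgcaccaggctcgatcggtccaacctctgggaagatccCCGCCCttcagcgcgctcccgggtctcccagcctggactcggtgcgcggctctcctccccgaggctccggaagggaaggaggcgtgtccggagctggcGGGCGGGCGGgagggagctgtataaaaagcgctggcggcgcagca
Cxcl12: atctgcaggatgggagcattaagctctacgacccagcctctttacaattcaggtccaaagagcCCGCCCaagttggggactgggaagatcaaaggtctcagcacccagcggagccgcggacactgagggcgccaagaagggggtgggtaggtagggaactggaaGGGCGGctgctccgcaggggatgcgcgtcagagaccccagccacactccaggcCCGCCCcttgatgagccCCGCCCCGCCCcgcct
Twist1: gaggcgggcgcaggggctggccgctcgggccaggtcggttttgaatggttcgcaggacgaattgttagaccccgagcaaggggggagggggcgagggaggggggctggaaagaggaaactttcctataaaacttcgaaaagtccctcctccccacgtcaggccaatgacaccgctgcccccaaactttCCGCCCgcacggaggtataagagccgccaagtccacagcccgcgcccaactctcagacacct
Wwtr1: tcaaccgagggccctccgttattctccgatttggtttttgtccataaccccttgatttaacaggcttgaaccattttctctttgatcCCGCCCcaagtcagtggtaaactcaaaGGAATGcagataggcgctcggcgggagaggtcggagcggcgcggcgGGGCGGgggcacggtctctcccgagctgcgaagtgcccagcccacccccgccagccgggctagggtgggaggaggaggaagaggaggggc
Ccn1: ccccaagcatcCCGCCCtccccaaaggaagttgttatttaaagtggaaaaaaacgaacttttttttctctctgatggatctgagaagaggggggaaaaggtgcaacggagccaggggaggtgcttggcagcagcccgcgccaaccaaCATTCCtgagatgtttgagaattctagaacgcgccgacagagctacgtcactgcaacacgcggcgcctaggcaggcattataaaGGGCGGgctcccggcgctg
Vgll3: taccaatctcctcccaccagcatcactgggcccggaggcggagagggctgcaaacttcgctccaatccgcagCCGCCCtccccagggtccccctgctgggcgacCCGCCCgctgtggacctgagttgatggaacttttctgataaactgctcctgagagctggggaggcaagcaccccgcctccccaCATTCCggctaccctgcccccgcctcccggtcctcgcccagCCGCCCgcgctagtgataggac
Cald1: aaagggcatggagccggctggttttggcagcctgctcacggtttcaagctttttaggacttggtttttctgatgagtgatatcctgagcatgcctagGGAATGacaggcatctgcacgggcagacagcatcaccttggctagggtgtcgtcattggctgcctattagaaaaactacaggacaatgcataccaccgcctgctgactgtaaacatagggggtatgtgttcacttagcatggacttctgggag
Col6a1: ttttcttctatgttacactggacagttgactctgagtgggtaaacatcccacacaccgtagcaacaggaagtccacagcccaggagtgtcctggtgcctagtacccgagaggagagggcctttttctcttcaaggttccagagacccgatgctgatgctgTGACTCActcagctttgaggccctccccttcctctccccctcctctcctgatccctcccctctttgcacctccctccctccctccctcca

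Kitl and Cxcl12 held 3 and 5 KLF and SP matches and no TEAD or AP-1 match. Wwtr1, Ccn1, Vgll3 and Cald1 held 1 TEAD match each, and Col6a1 held the single AP-1 match among the 8. The 8 were picked after their values were seen, so these counts describe the printed windows alone. A match is a description of letters and not a bound site.

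MicroRNA sequences are shown for the miR-199 family, because all 3 of its listed hairpins overlapped a core region. MicroRNAs repress messenger RNAs that pair with their seed, bases 2 to 8, which is in capitals. Mir199a-2 (chromosome 1, 162217814 to 162217923, inside Dnm3), Mir199b (chromosome 2, 32318460 to 32318569, inside Dnm1) and Mir199a-1 (chromosome 9, 21496495 to 21496564, inside Dnm2) lie in 3 dynamin genes and give the same 3p sequence.
mmu-miR-199a-3p: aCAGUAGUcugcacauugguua
mmu-miR-199b-3p: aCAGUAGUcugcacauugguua
mmu-miR-199a-5p: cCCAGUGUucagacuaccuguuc

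The core regions stood apart from the regions open in all 10 libraries by where they lay. Of the 4141 core regions that could be placed against listed gene starts, 529 (12.8%, exact 95% binomial interval 11.8 to 13.8%) lay within 1 kb of one, against 6933 of 10270 regions (67.5%) open in all 10 libraries. The largest class, 2014 core regions or 48.6%, lay 10 to 100 kb away, and a further 1027 (24.8%) lay beyond 100 kb. The median distance was 35959 bases for core regions and 275.5 bases for regions open in all 10. All union regions together had 7.34% within 1 kb and a median of 36407 bases, close to the median of the core regions but with a smaller share near starts. A region open in the same 8 libraries and in 1 Scf-GFP-negative library was intermediate, with 28.7% within 1 kb. Starts are listed for part of the genes only, so distances are upper limits, by how much in each set was not tested. None is listed on chromosome 18, whose 178 core regions were not placed.

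**Figure D1:**
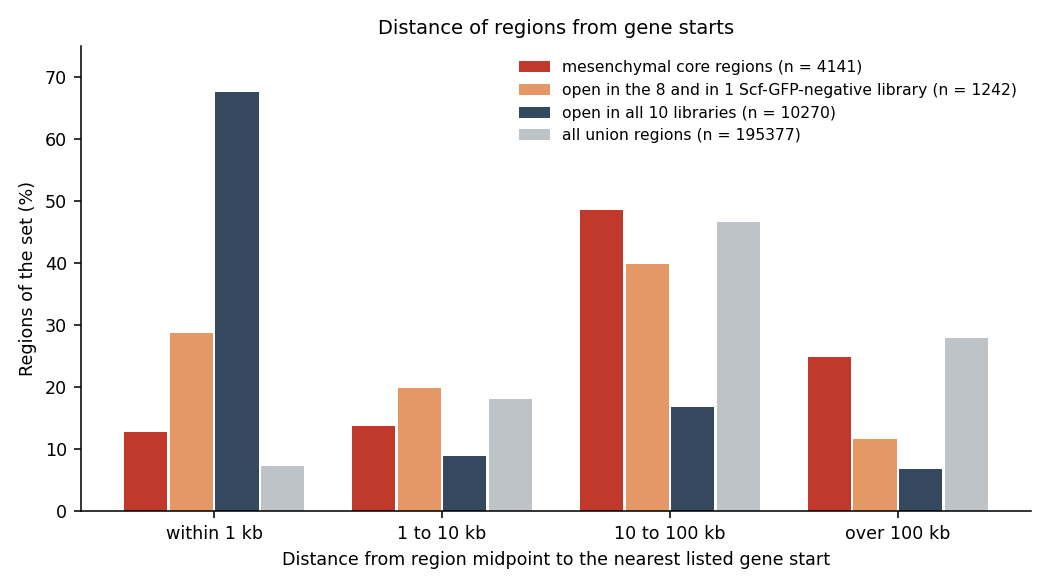
Share of regions (%) by distance from the region midpoint to the nearest listed gene start, for the core regions, regions open in the same 8 libraries and in 1 Scf-GFP-negative library, regions open in all 10 libraries and all union regions. Core regions had 12.8% within 1 kb and 48.6% at 10 to 100 kb, whereas regions open in all 10 had 67.5% within 1 kb.

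Core regions were narrower than regions open in all 10, with a median of 1026 against 1500 bases, and 55.8% against 74.9% lay inside a gene. They covered 4.96 Mb in all. Summits of the 8 libraries fell within a median span of 247 bases in a core region and 188 bases in a region open in all 10. The X chromosome held the smallest share, where 66 of 390 regions open in the 8 libraries (16.9%) were core regions, and chromosome 18 the largest, with 178 of 482 (36.9%). Core regions also lay in groups: 1240 of them (28.7%) formed 539 runs in which neighbours were at most 20 kb apart. The 3 longest runs, each of 6 regions, lay at Synpo, an actin-binding gene (27.5 kb), nearest to Rgs3, a brake on G protein signalling (35.5 kb), and at Rasa3, a Ras GTPase activator (50.5 kb). The run nearest to Rgs3 starts at 62728973, beyond the gene, which ends at 62703019. Col6a2 and Col6a1, neighbouring genes of collagen VI chains, shared a run of 5 over 47.1 kb. Amotl2, a YAP-binding scaffold, had 4 within 11.6 kb.

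The deposited lists held 66282, 70975 and 78489 peaks in rMSC, 48417, 75376 and 72791 in control stroma. Those of freshly sorted cells held 47679 and 68298 for Scf-GFP-positive and 46947 and 39936 for Scf-GFP-negative. Read totals are not part of peak lists. The background recovered from the fold enrichment of the peaks was 0.236 to 0.353 tags in the cultured libraries. It was 0.408 and 0.591 in Scf-GFP-positive and 0.715 and 0.391 in Scf-GFP-negative libraries. Summit tags given here are not scaled for this background. The weakest peak of a list had 3 or 4 tags in the cultured and Scf-GFP-positive libraries, and 5 and 4 in the Scf-GFP-negative ones. Replicate 1 of every group was sequenced on flow cell AHY33MBCXX and all others on AC99CPACXX. The weakest of the 8 peaks in a core region rested on a median of 7 tags (range 3 to 33) and the strongest on 19 (6 to 109). Just outside lay 1278 regions open in the 8 libraries and in 1 Scf-GFP-negative library, whose Scf-GFP-negative peak also had a median of 7 tags. A further 3290 regions lacked a peak in 1 of the 8 libraries only, 1594 of them in Scf-GFP-positive replicate 1. With lists cut to equal size, 2510 of the 4319 (58.1%) still met the rule. Absence in Scf-GFP-negative stroma means that no peak was called at that depth, and the Scf-GFP-negative lists were the shortest.

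Genes of matrix, contraction and mesenchymal identity often had a core region in their locus, defined as the gene with 10 kb on either side. Among all 21627 protein-coding loci, 2566 (11.9%) held at least 1, and 13.7% did among loci of 50 to 100 kb; longer loci were not taken apart. Of the collagens, 16 of 19 loci held a core region (29 regions in all), including Col1a1, Col3a1, both listed chains of collagen IV and all 3 listed chains of collagen VI. The collagen loci were also the longest of the lists, with a median of 126 kb. Of matrix proteins and matrix enzymes 23 of 36 loci did so (46 regions), among them Fn1, Fbn1, Sparc, Mmp2, Lox and Serpinh1, the collagen chaperone. Actin and contractile genes had 18 of 31 loci with a core region, and 6 of the 37 regions lay at Actn4, an actin cross-linker.

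Lists of signalling, adhesion and lineage genes ranged widely. YAP, TAZ and Tead genes had 12 of 19 loci with a core region (22 regions), the TGF-beta pathway 11 of 19, integrins and adhesion 16 of 28, and mesenchymal transcription factors 16 of 28, among them Twist1, Twist2, Snai2, Foxc1, Runx1, Runx2, Nfib and Nfix. Blood stem cell niche factors had 12 of 23, including Kitl, Cxcl12, Angpt1 and Il6. The BMP list had 11 of 22, PDGF and FGF receptors and ligands 7 of 15, mesenchymal surface and stromal markers 8 of 18, Wnt 12 of 29, Hox 12 of 32 and AP-1 7 of 19. The 12 Hox loci shared 8 core regions, because loci of neighbouring Hox genes overlap. All of these lay in the Hoxa and Hoxc clusters, and none in Hoxb or Hoxd. Among the lineages that stromal cells give rise to, osteoblast genes had 5 of 16 and adipocyte genes 4 of 17. At the other end, 2 of 32 blood cell loci (6.25%), 3 of 20 endothelial loci (15%), 2 of 12 Schwann and nerve loci and 2 of 12 chondrocyte loci (16.7% each) held one. Of these lists, only that of blood cells lay below the 11.9% of all loci. The Schwann and nerve list held 7 core regions, 4 at Ncam1 and 3 at Pmp22. All 14 ubiquitous genes had a region open in all 10 libraries, and 3 of the 14 held a core region. Among genes that mark these cells, the loci of Prrx1, Pdgfra, Lepr and Col1a2 held none. The Prrx1 locus had no peak in either Scf-GFP-negative library and none of its 24 union regions was open in all 8 others. Of the 5 transduced genes only Ostf1 had a core region in its locus. These counts carry no test.

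**Figure D2:**
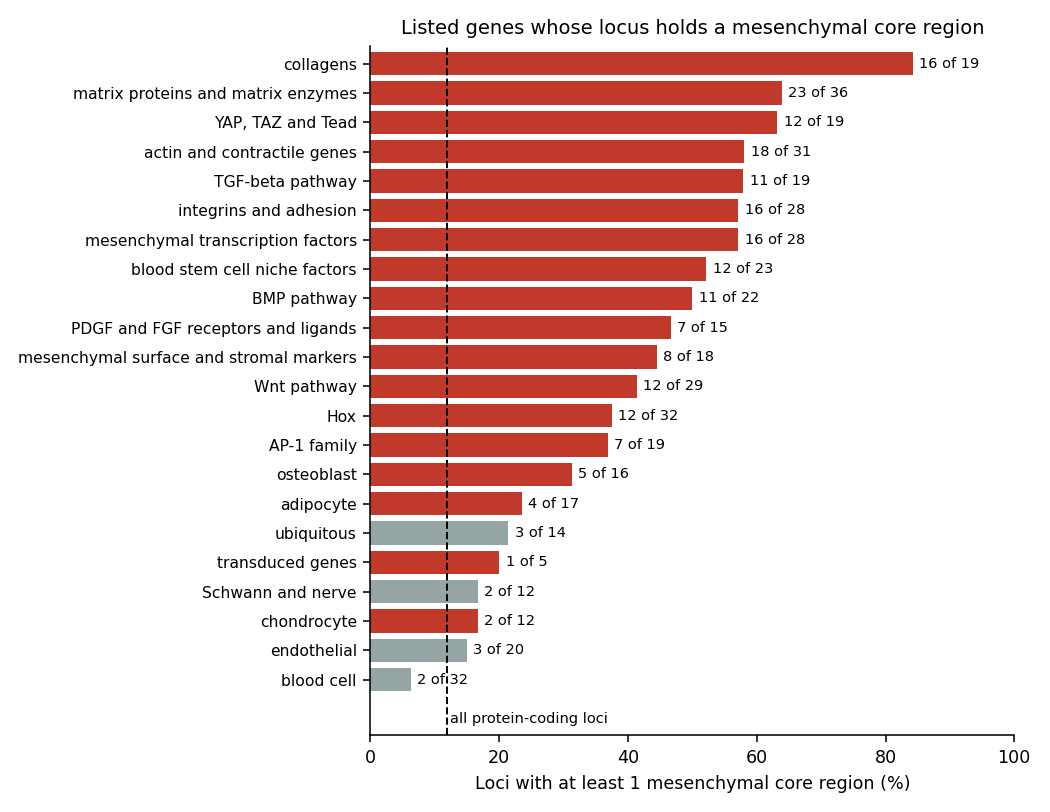
Share of the loci of each gene list (%) that held at least 1 core region, with the number of loci beside each bar; grey bars are lists of other cell types and ubiquitous genes, and the dashed line marks the 11.9% of all protein-coding loci. Collagens had 16 of 19 loci, blood cell genes 2 of 32.

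Core regions that reached a gene start differed in base composition from promoters that were open throughout. Of 21019 RefSeq promoter windows of 300 bases, 585 (518 genes) were overlapped over at least 150 bases by a core region and 8954 by a region open in all 10. The median number of CpG was 18 in core promoters, 23 in promoters open in all 10 and 13 in all promoters. Under 5 CpG were found in 10.6% of core promoters, against 1.35% of those open in all 10 and 27.8% of all promoters. The ETS motif CCGGAA, typical of housekeeping promoters, stood in 13.8% of core promoters against 34.0% of promoters open in all 10, with 18.9% of all promoters. TEAD letters (GGAATG) were found in 17.6%, against 10.4% and 13.5%, and AP-1 letters (TGANTCA) in 7.35%, against 3.70% and 7.04%. RUNX letters (TGTGGT) were no more frequent in core promoters, with 10.6%, against 10.96% and 14.7%. KLF and SP letters (GGGCGG), common in CpG-rich promoters, stood in 63.8%, against 71.1% and 46.6%. Both strands were searched, and matches of different motifs may overlap. Among windows with under 10 CpG, AP-1 letters stood in 18% of 150 core promoters, 7.79% of 603 open in all 10 and 11.4% of all 8976. TEAD letters did so in 23.3%, 13.4% and 17.3% of the same sets, and RUNX letters in 16%, 19.4% and 21.0%. Distal core regions were not searched, as only promoter sequence was used here.

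To compare strength between groups, the strongest peak of each region was ranked within its library among the 16135 regions open in all 8 libraries, and the rank is given as a percentile from 0 (weakest) to 100 (strongest). Ranks of a library have a fixed sum, so a class that ranks higher is mirrored by another that ranks lower. Core regions ranked low in every library. The rule left out every region with a peak in Scf-GFP-negative stroma, and a peak call depends on strength. How much of the low rank follows from the rule was not tested. Their median percentile was 29.7, 32.1 and 31.9 in rMSC, 30.9, 32.5 and 30.8 in control stroma, against 21.8 and 22.1 in the Scf-GFP-positive libraries. The regions open in all 10 had medians of 59.7 to 66.3. The 6 cultured libraries lay above both freshly sorted ones without overlap. In tags at the summit, the median core region had 12 in every cultured library and 10 and 11 in Scf-GFP-positive stroma. Near gene starts this gap was small: core regions within 1 kb had medians of 32.1 to 36.2 in rMSC, 30.8 to 35.2 in control stroma, and 33.2 and 29.7 in Scf-GFP-positive stroma.

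**Figure D3:**
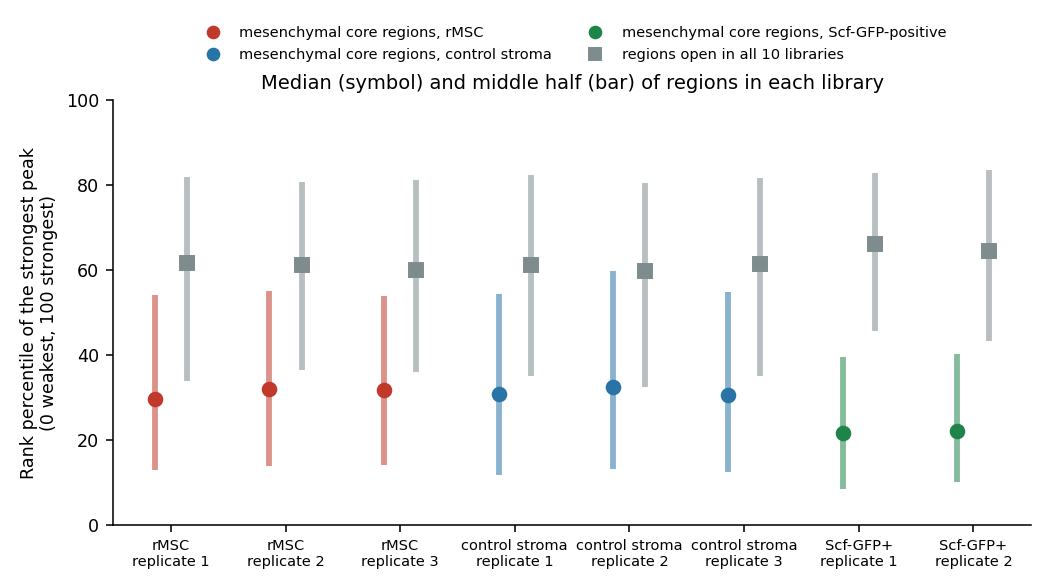
Rank percentile of the strongest peak (0 weakest, 100 strongest) in each of 8 libraries; symbols are medians and bars span the quartiles, for core regions (coloured circles) and regions open in all 10 libraries (grey squares). Core regions sit at medians of 29.7 to 32.5 in the cultured libraries and of 21.8 and 22.1 in Scf-GFP-positive stroma.

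The ranks of single regions were fitted with limma over the 8 libraries, with Benjamini-Hochberg adjustment over all 16135 regions and a threshold of 0.05. Differences below are in percentile points with their standard error. In the comparison of rMSC with control stroma, which asks what the 5 genes changed in cultured stroma, 455 core regions ranked higher in rMSC and 499 lower. These are 10.5% and 11.6% of the core regions, beside 7.44% and 6.57% of all regions tested, and 5.91% and 4.68% of regions open in all 10. The median difference over core regions was -0.49 points, and -0.39 over all regions, so the median core region was level while single regions moved both ways. Within flow cell AC99CPACXX alone, with 2 libraries on each side, 66 of these 954 calls passed. With bases covered by peaks in place of rank, 77 core regions were higher and 179 lower, and 144 of the 954 calls were kept.

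**Figure D4:**
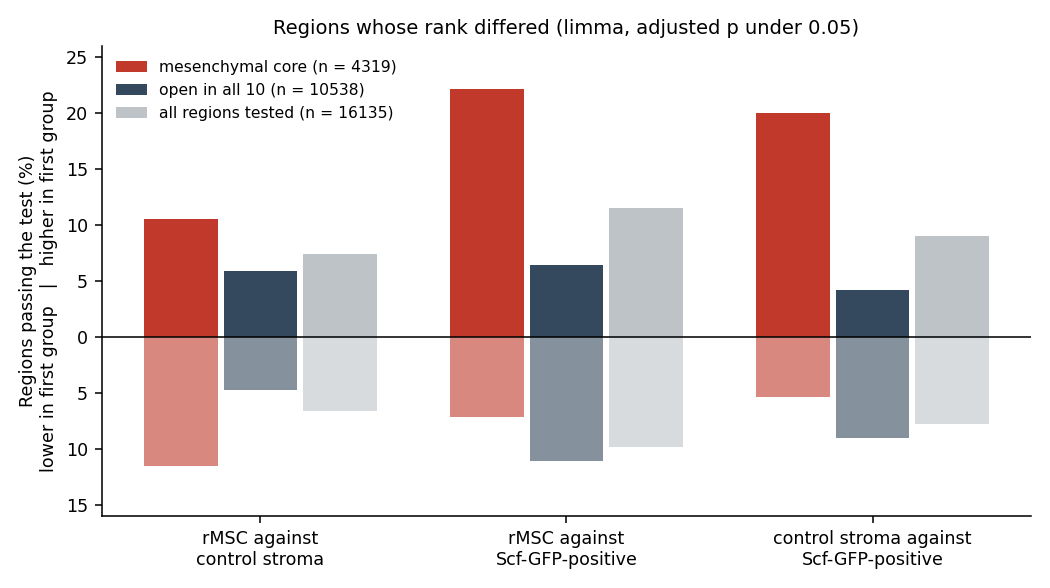
Share of regions (%) whose rank passed the test, higher in the first-named group above the line and lower below it, for core regions, regions open in all 10 libraries and all regions tested. Core regions had 22.2% higher and 7.18% lower in rMSC against Scf-GFP-positive stroma, but 10.5% and 11.6% in rMSC against control stroma.

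The largest rises in rMSC over control stroma were at single regions. In Tgm2, the tissue transglutaminase that cross-links matrix proteins, a region (chromosome 2, 158139499 to 158140326) had summit tag counts of 43, 52 and 44 in rMSC, 6, 3 and 7 in control stroma, and 8 and 11 in Scf-GFP-positive stroma. Its percentiles were 92.7, 96.5 and 92.2 in rMSC, 3.26, 0.0372 and 8.39 in control stroma, and 13.1 and 22.1 in Scf-GFP-positive stroma. The rMSC libraries stood above all others, a difference of 89.9 ± 7.94 (adjusted p = 0.000176) from control stroma. A region between genes near St3gal1, a sialyltransferase (chromosome 15, 67222308 to 67223180), behaved alike, with 90.3, 83.5 and 82.4 in rMSC, 11.9, 2.34 and 4.83 in control stroma, and 4.24 and 6.3 in Scf-GFP-positive stroma and a difference of 79.0 ± 7.53 (adjusted p = 0.000176). Regions inside Arfgap3, which acts on Golgi transport, near Nuak1, an AMPK-related kinase, and inside Cnksr3 differed by 85.5 ± 7.63 (adjusted p = 0.000176), 76.1 ± 8.63 (adjusted p = 0.000314) and 75.5 ± 11.5 (adjusted p = 0.00133).

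Lmo7, which encodes a LIM protein of cell junctions, showed another order. The region at its start (chromosome 14, 101729191 to 101730541) had percentiles of 93.8, 86.9 and 95.4 in rMSC, 11.9, 13.3 and 21.8 in control stroma, and 85.4 and 70.8 in Scf-GFP-positive stroma. It was low in control stroma alone, by 76.4 ± 8.19 (adjusted p = 0.000253) for rMSC minus control stroma and -62.4 ± 9.15 (adjusted p = 0.000905) for control stroma minus Scf-GFP-positive stroma.

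Among the largest falls, a region inside Vrk2, a nuclear kinase (chromosome 11, 26489685 to 26490592), had summit tag counts of 5, 5 and 5 in rMSC, 24, 33 and 31 in control stroma, and 6 and 6 in Scf-GFP-positive stroma. The percentiles were 2.65, 2.93 and 2.9 in rMSC, 71.7, 87.6 and 84.9 in control stroma, and 4.24 and 2.96 in Scf-GFP-positive stroma, so control stroma was high and both other groups were near the bottom of the scale. rMSC minus control stroma was -78.5 ± 7.45 (adjusted p = 0.000176). A region whose nearest gene, 120457 bases away, was Trib1, a pseudokinase that promotes degradation of C/EBP-alpha (chromosome 15, 59777005 to 59778107), had 2.65, 2.93 and 9.96 in rMSC, 85.1, 91.3 and 78.3 in control stroma, and 61.8 and 54.7 in Scf-GFP-positive stroma, and differed by -79.7 ± 8.46 (adjusted p = 0.000253). Regions near Ccl6, a chemokine, near Nedd4, a ubiquitin ligase, and near Sf3b3, a splicing factor gene, differed by -75.5 ± 8.81 (adjusted p = 0.000324), -72.2 ± 7.95 (adjusted p = 0.000278) and -73.8 ± 7.74 (adjusted p = 0.000243). The region near Sf3b3 also lies within 10 kb of Il34, a gene of the niche list. Both core regions of the Il34 locus ranked lower in rMSC than in control stroma, and higher in control stroma than in Scf-GFP-positive stroma. The latter calls were lost without Scf-GFP-positive replicate 1 (adjusted p = 0.073 and 0.206) and in covered bases (0.23 and 0.0634). At the other Il34 region, which starts at 110809826, the difference between rMSC and control stroma did not pass in covered bases either (adjusted p = 0.356). The 12 largest differences of both directions, named by rule, kept their call in all 8 fits that left out 1 library. In bases covered by peaks, those at Tgm2, Cnksr3, Trib1, Ccl6, Nedd4 and Sf3b3 passed as well, and those at Arfgap3, St3gal1, Lmo7, Nuak1, Vrk2 and Cyb5a did not.

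The niche factors Kitl and Cxcl12 ran opposite ways. Kitl held 2 core regions. That inside the gene, 50319 bases from the start (chromosome 10, 100065496 to 100066784), had summit tag counts of 36, 34 and 31 in rMSC, 11, 15 and 13 in control stroma, and 13 and 8 in Scf-GFP-positive stroma. The percentiles there were 87.6, 86.9 and 81.2 in rMSC, 26.6, 45.3 and 35.2 in control stroma, and 33.2 and 10.2 in Scf-GFP-positive stroma. The rMSC libraries lay above all others, by 49.5 ± 9.37 (adjusted p = 0.00436) over control stroma and 63.5 ± 10.5 (adjusted p = 0.0013) over Scf-GFP-positive stroma. The region at the start, whose sequence is printed above (chromosome 10, 100015197 to 100016875), had 52.6, 74.0 and 69.7 in rMSC, 22.0, 27.7 and 17.0 in control stroma, and 61.8 and 33.4 in Scf-GFP-positive stroma. rMSC exceeded control stroma here by 43.2 ± 9.87 (adjusted p = 0.0116) without overlap, and overlapped with Scf-GFP-positive stroma. Kitl is the gene that Scf-GFP reports, and all 3 groups came through that gate.

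At the Cxcl12 start (chromosome 6, 117168047 to 117169389) the order was reversed, with 12.9, 0.868 and 6.08 in rMSC, 30.9, 22.9 and 26.4 in control stroma, and 56.9 and 40.3 in Scf-GFP-positive stroma. Summit tag counts were 8, 4 and 6 in rMSC, 12, 10 and 11 in control stroma, and 21 and 16 in Scf-GFP-positive stroma. rMSC was lowest in every library, and differed from Scf-GFP-positive stroma by -42.0 ± 8.02 (adjusted p = 0.00312) and from control stroma by -20.1 ± 7.17 (adjusted p = 0.0786), which did not pass. Over the whole niche list, 3 of 19 core regions ranked higher and 4 lower in rMSC than in control stroma, beside 7.44% and 6.57% of all regions and 10.5% and 11.6% of core regions. Of those lower, 2 lay at Il34. Each of the calls given for Kitl and Cxcl12 held in all 8 fits that left out 1 library. In covered bases, the differences of Kitl between rMSC and control stroma did not pass (adjusted p = 0.818 inside the gene and 0.176 at the start), while those of both genes from Scf-GFP-positive stroma did (0.0316 for Kitl inside the gene, 0.0132 for Cxcl12).

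Genes of the YAP, TAZ and TEAD pathway had core regions that ranked higher in rMSC than in control stroma in 3 of 22 cases and lower in none, beside 10.5% and 11.6% of all core regions and 7.44% and 6.57% of all regions, so the share higher was near that of core regions. Ccn2, a matricellular protein and classical YAP target (chromosome 10, 24595028 to 24600600), had percentiles of 97.6, 95.4 and 95.1 in rMSC, 35.2, 27.7 and 51.2 in control stroma, and 72.3 and 57.4 in Scf-GFP-positive stroma. The rMSC libraries were highest without overlap and control stroma lowest, a difference of 58.0 ± 7.88 (adjusted p = 0.000754), which also passed in covered bases (adjusted p = 0.0047). Its relative Ccn1 (chromosome 3, 145643705 to 145653986), with the TEAD letters in the printed promoter, had 87.6, 87.9 and 79.8 in rMSC, 66.7, 49.3 and 54.8 in control stroma, and 68.3 and 62.4 in Scf-GFP-positive stroma. The difference of 28.2 ± 6.74 (adjusted p = 0.0144) was lost without rMSC replicate 1 or 2 (adjusted p up to 0.0622). At Amotl2 the core region with the highest ranks differed by 27.3 ± 8.13 (adjusted p = 0.0396), and did not pass once any rMSC library was left out, or either of control stroma replicates 1 and 2 (adjusted p up to 0.166). At the start of Wwtr1, which encodes TAZ itself, the percentiles were 69.2, 71.8 and 67.6 in rMSC, 79.3, 84.9 and 72.4 in control stroma, and 93.5 and 89.1 in Scf-GFP-positive stroma. Both Scf-GFP-positive libraries lay above all cultured ones, and rMSC minus Scf-GFP-positive stroma was -21.8 ± 5.13 (adjusted p = 0.00992), lost without Scf-GFP-positive replicate 1 (adjusted p = 0.115) and in covered bases (0.211). Inside Lats2, a kinase that restrains YAP, the sorted libraries were at the bottom of the scale, with 38.2, 32.1 and 27.7 in rMSC, 69.3, 41.3 and 35.2 in control stroma, and 0.0899 and 0.793 in Scf-GFP-positive stroma, and control stroma minus Scf-GFP-positive stroma was 48.1 ± 10.1 (adjusted p = 0.00643), lost without either Scf-GFP-positive library (adjusted p up to 0.0667). The start of Tead3, which encodes a TEAD factor, passed in no comparison. Of the 2 core regions of Tead1, another TEAD gene, none passed between rMSC and control stroma. Against Scf-GFP-positive stroma, 1 ranked higher in rMSC and 1 in control stroma.

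Matrix and contraction genes moved both ways. At the start of Cald1, which encodes the actin-binding caldesmon, the percentiles were 92.7, 83.5 and 85.8 in rMSC, 43.4, 41.3 and 35.2 in control stroma, and 29.5 and 40.3 in Scf-GFP-positive stroma. rMSC exceeded control stroma by 47.4 ± 8.3 (adjusted p = 0.0029). The start of Pdgfa, a growth factor for stromal cells, was higher by 42.4 ± 9.35 (adjusted p = 0.00967), and the start of Nt5e, the ecto-enzyme CD73, by 39.9 ± 8.02 (adjusted p = 0.00592). In the other direction, the start of Thbs2, a thrombospondin, had 29.7, 48.3 and 23.2 in rMSC, 77.6, 78.9 and 81.8 in control stroma, and 66.3 and 52.1 in Scf-GFP-positive stroma, a difference of -45.7 ± 9.11 (adjusted p = 0.00568). The start of Col5a1, a collagen V chain, differed by -36.8 ± 8.21 (adjusted p = 0.0103). At the start of Col6a2, a collagen VI chain, rMSC exceeded control stroma by 37.2 ± 9.33 (adjusted p = 0.0181), a call lost without control stroma replicate 1 or 3 or rMSC replicate 2 or 3 (adjusted p up to 0.0628), and Scf-GFP-positive stroma by 56.0 ± 10.4 (adjusted p = 0.00267); neither passed in covered bases (0.505 and 0.0538). The Col6a1 start had 52.6, 58.3 and 54.1 in rMSC, 16.9, 41.3 and 51.2 in control stroma, and 13.1 and 10.2 in Scf-GFP-positive stroma, with the sorted libraries below all cultured ones. Over the lists, collagens had 4 of 29 core regions higher and 3 lower in rMSC, matrix proteins and enzymes 3 of 46 and 6, and actin and contractile genes 3 of 37 and 3. Core regions in all had 10.5% higher and 11.6% lower, and all regions 7.44% and 6.57%, so these counts lie near the general share.

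Core regions of the TGF-beta list ranked lower in rMSC than in control stroma in 5 of 23 cases and higher in none, beside 11.6% lower and 10.5% higher among all core regions and 6.57% and 7.44% among all regions. They lay at Tgfbr3 (2 regions), Smad3, Ltbp1 and Acvr1. The Wnt list had 4 of 17 lower and none higher, at Wnt5a, Wnt10b, Wnt16 and Lrp5, the last lost in 4 of the 8 fits that left out 1 library (adjusted p up to 0.113). Neither list was tested as a group. Beside Wnt10b, a Wnt ligand that favours bone formation, the percentiles were 34.0, 23.1 and 18.6 in rMSC, 79.3, 80.7 and 67.4 in control stroma, and 48.6 and 40.3 in Scf-GFP-positive stroma, and control stroma was highest without overlap. rMSC minus control stroma was -50.5 ± 8.82 (adjusted p = 0.00289). At the start of Twist1, a helix-loop-helix factor of mesenchyme, they were 45.8, 23.1 and 40.2 in rMSC, 79.3, 73.0 and 70.1 in control stroma, and 51.5 and 57.4 in Scf-GFP-positive stroma. rMSC was lowest in every library and differed from control stroma by -37.7 ± 8.94 (adjusted p = 0.0139). The median difference was -9.26 points over the TGF-beta regions and -3.95 over the Wnt regions, beside -0.39 over all regions tested. Of the differences given for Cald1, Pdgfa, Nt5e, Thbs2, Col5a1, Wnt10b and Twist1, all held in the 8 fits that left out 1 library, and those of Nt5e and Col5a1 alone passed in covered bases.

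**Figure D5:**
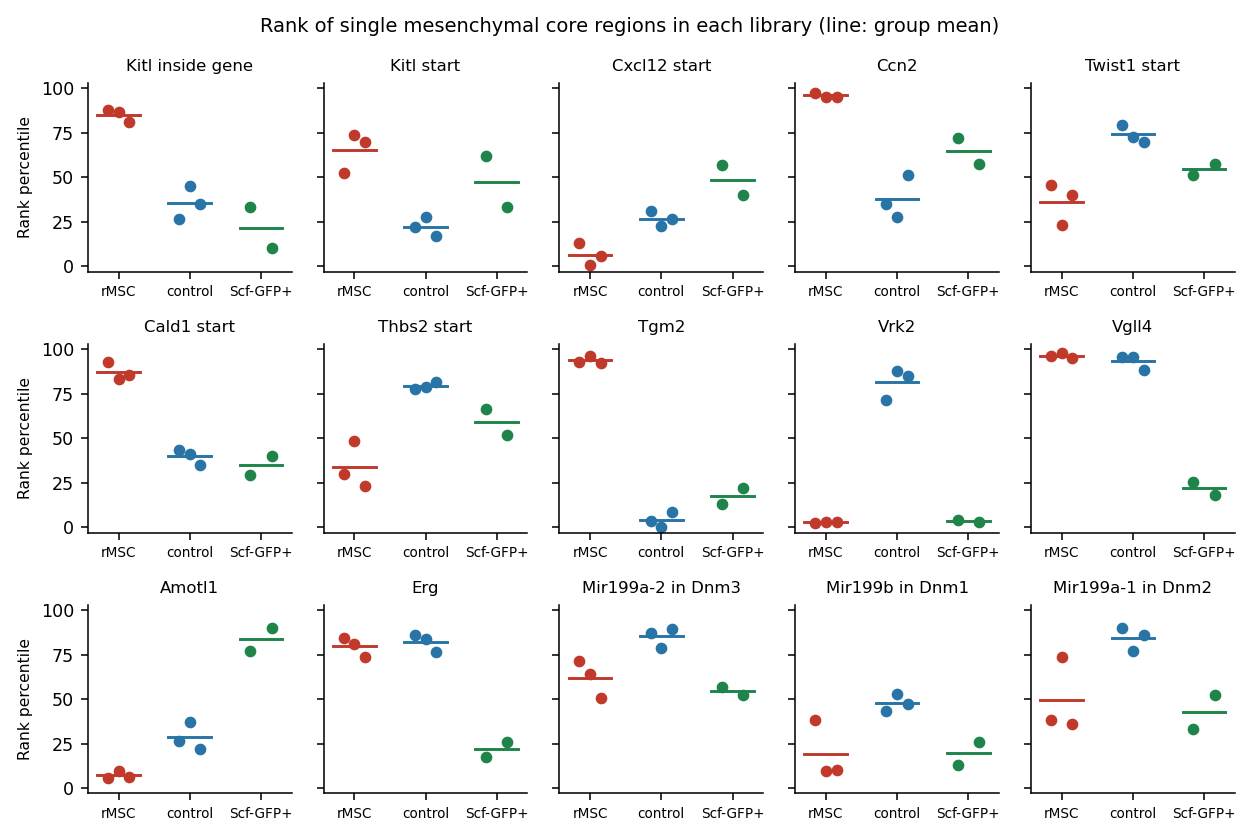
Rank percentile (0 weakest, 100 strongest) of 15 core regions in each library, with a point per library and a line at the group mean, for rMSC, control stroma and Scf-GFP-positive stroma (Scf-GFP+). By group mean, Kitl, Ccn2, Cald1 and Tgm2 were highest in rMSC, and Vrk2, Thbs2 and Twist1 in control stroma. Cxcl12 and Amotl1 were highest in Scf-GFP-positive stroma. At the Kitl start, rMSC and Scf-GFP-positive libraries overlapped.

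Against freshly sorted Scf-GFP-positive stroma the core regions ranked higher in both cultures. In rMSC 957 (22.2%) were higher and 310 (7.18%) lower, beside 11.5% and 9.78% of all regions tested. In control stroma 864 (20.0%) were higher and 232 (5.37%) lower, beside 8.99% and 7.79%. The median difference over core regions was 7.36 points for rMSC and 7.74 for control stroma, against -1.01 and -0.58 over all regions. Regions open in the same 8 libraries and in 1 Scf-GFP-negative library also ranked higher more often than lower, with 17.3% and 8.14% for rMSC (median 6.37) and 10.9% and 5.95% for control stroma (median 3.66). The difference between these sets was not tested. Both comparisons use the same 2 Scf-GFP-positive libraries, and the core regions were chosen for lacking a peak in the other freshly sorted group. Within flow cell AC99CPACXX the median was 8.26 points for rMSC and 8.53 for control stroma, and within AHY33MBCXX it was 7.96 and 7.69. Among the 3612 core regions over 1 kb from a gene start, 835 were higher and 250 lower in rMSC, and 774 and 172 in control stroma. Among the 529 within 1 kb the split was 93 and 50 in rMSC, and 58 and 54 in control stroma. Leaving out Scf-GFP-positive replicate 1 reduced the higher core regions to 454 for rMSC and 366 for control stroma, and leaving out replicate 2 to 533 and 470.

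Some of the core regions that were strong in culture ranked low in freshly sorted stroma, where the median core region had percentiles of 21.8 and 22.1. Inside Vgll4, a transcription cofactor that competes with YAP for TEAD (chromosome 6, 114888776 to 114889690), summit tag counts were 51, 58 and 51 in rMSC, 47, 46 and 34 in control stroma, and 11 and 10 in Scf-GFP-positive stroma. The percentiles were 96.1, 97.8 and 95.1 in rMSC, 95.8, 95.5 and 88.4 in control stroma, and 25.6 and 18.1 in Scf-GFP-positive stroma, with both cultures far above the sorted libraries. Among the other core regions of Vgll4, 1 ranked lower than in sorted stroma in each of the comparisons. The difference was 74.4 ± 5.35 (adjusted p = 1.77e-05) for rMSC and 71.3 ± 5.35 (adjusted p = 2.65e-05) for control stroma. The start of Vgll3, a related cofactor, gave 42.1 ± 5.81 (adjusted p = 0.000478) and 30.8 ± 5.81 (adjusted p = 0.0037). Regions inside Dlgap1, a scaffold gene, and Eps8, an actin-capping gene, gave 87.9 ± 7.73 (adjusted p = 4.35e-05) and 86.3 ± 7.52 (adjusted p = 4.35e-05) for rMSC.

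Inside Myh9, the heavy chain of non-muscle myosin II, the percentiles were 97.7, 98.4 and 97.5 in rMSC, 47.3, 62.8 and 54.8 in control stroma, and 8.55 and 14.2 in Scf-GFP-positive stroma. All 3 groups were apart, with rMSC above control stroma by 42.9 ± 7.95 (adjusted p = 0.00398) and control stroma above Scf-GFP-positive stroma by 43.6 ± 8.89 (adjusted p = 0.00557). At the start of Tpm4, a tropomyosin, and beside Id2, an inhibitor of helix-loop-helix factors, both cultures lay above the sorted libraries, by 40.7 ± 7.42 (adjusted p = 0.00237) and 46.1 ± 6.43 (adjusted p = 0.0005) for rMSC. The actin and contractile list had 11 of 37 core regions higher and 2 lower in rMSC, and 12 and 2 in control stroma. Matrix proteins and enzymes had 13 of 46 and 3 in rMSC, and 10 and 0 in control stroma. These counts stand beside 22.2% and 7.18% of all core regions for rMSC and 20.0% and 5.37% for control stroma, and beside 11.5% and 9.78%, and 8.99% and 7.79%, of all regions, and no list was tested against that general shift.

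Other core regions were strongest in freshly sorted stroma. Inside Amotl1, which binds YAP as Amotl2 does (chromosome 9, 14641385 to 14643132), the percentiles were 5.58, 9.66 and 6.08 in rMSC, 26.6, 37.1 and 21.8 in control stroma, and 77.3 and 89.8 in Scf-GFP-positive stroma. The groups did not overlap, and rMSC minus Scf-GFP-positive stroma was -76.4 ± 8.72 (adjusted p = 0.00015). Adamts9, a matrix protease, and Fat4, a giant cadherin that acts upstream of the Hippo pathway, gave -72.9 ± 9.09 (adjusted p = 0.000246) and -69.0 ± 9.71 (adjusted p = 0.000529). Regions inside Bmp2 and Dlx5, which both promote bone formation, gave -55.8 ± 7.87 (adjusted p = 0.000529) and -49.7 ± 8.77 (adjusted p = 0.00197). At the start of Cxcl1, a neutrophil chemokine, the percentiles were 12.9, 27.6 and 23.2 in rMSC, 11.9, 5.25 and 12.5 in control stroma, and 70.3 and 74.3 in Scf-GFP-positive stroma, and rMSC minus Scf-GFP-positive stroma was -51.1 ± 8.12 (adjusted p = 0.0011). The differences from Scf-GFP-positive stroma given for single regions in these paragraphs held in all 8 fits that left out 1 library. In covered bases those of Amotl1, Dlx5 and Cxcl1, that of Vgll3 for control stroma, and the difference of Myh9 between rMSC and control stroma did not pass.

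Regions that separated control stroma from sorted stroma were largest at Sec61b and Arhgap10. Near Sec61b, a gene of the protein channel of the endoplasmic reticulum, the percentiles were 87.6, 74.0 and 84.8 in rMSC, 98.3, 98.0 and 88.4 in control stroma, and 8.55 and 6.3 in Scf-GFP-positive stroma. Inside Arhgap10, a GTPase activator, they were 75.5, 84.7 and 75.5 in rMSC, 93.4, 94.5 and 89.4 in control stroma, and 4.24 and 6.3 in Scf-GFP-positive stroma. Both regions stood high in the 6 cultured libraries and near the bottom in both sorted ones, and control stroma minus Scf-GFP-positive stroma was 87.5 ± 7.61 (adjusted p = 4.97e-05) and 87.2 ± 7.79 (adjusted p = 5.1e-05). Inside Ctsb, the lysosomal protease cathepsin B, it was 82.8 ± 9.77 (adjusted p = 0.000237). The opposite held beside Pcdh10, a protocadherin, with 45.8, 40.7 and 40.2 in rMSC, 16.9, 2.34 and 21.8 in control stroma, and 85.4 and 82.4 in Scf-GFP-positive stroma and a difference of -70.2 ± 9.41 (adjusted p = 0.000578). All 4 held in the 8 fits that left out 1 library and in covered bases.

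Among mesenchymal transcription factors, the start of Foxc1, a forkhead factor required for the marrow niche, had even values, 88.6, 85.9 and 85.8 in rMSC, 75.8, 86.3 and 86.1 in control stroma, and 84.2 and 70.8 in Scf-GFP-positive stroma, and passed in no comparison. Inside Nfia, a nuclear factor I gene, sorted stroma was highest without overlap, with 21.3, 18.6 and 18.6 in rMSC, 39.3, 32.5 and 43.6 in control stroma, and 83.0 and 64.7 in Scf-GFP-positive stroma, and rMSC minus Scf-GFP-positive stroma was -54.3 ± 9.3 (adjusted p = 0.00165), which did not pass in covered bases (adjusted p = 0.0635). Another core region of Nfia ranked higher in control stroma than in sorted stroma. Inside Runx1, the order ran the other way, with 80.4, 69.5 and 75.5 in rMSC, 47.3, 53.0 and 54.8 in control stroma, and 29.5 and 40.3 in Scf-GFP-positive stroma and 40.3 ± 9.31 (adjusted p = 0.00911) for the same difference, lost without Scf-GFP-positive replicate 1 (adjusted p = 0.0898) and in covered bases (0.0664). The start of Twist2 had 42.2, 18.6 and 14.2 in rMSC, 35.2, 53.0 and 39.4 in control stroma, and 4.24 and 2.96 in Scf-GFP-positive stroma, so both sorted libraries lay under every cultured one, and control stroma minus Scf-GFP-positive stroma was 38.9 ± 9.48 (adjusted p = 0.0139), lost without either Scf-GFP-positive library (adjusted p up to 0.0952). The core regions with the highest ranks at Snai2, Osr1, Nfib, Nfix, Ebf1, Ebf2 and Tbx18 passed in no comparison, but other core regions of Nfib passed in both directions and 1 of Osr1 ranked higher in control stroma than in sorted stroma.

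A few core regions lay beside genes of other lineages. Inside Erg, an endothelial transcription factor, the percentiles were 84.6, 80.7 and 73.7 in rMSC, 86.2, 83.6 and 76.4 in control stroma, and 17.6 and 26.02 in Scf-GFP-positive stroma. Both cultures exceeded sorted stroma, by 57.9 ± 7.96 (adjusted p = 0.000466) for rMSC and 60.3 ± 7.96 (adjusted p = 0.000534) for control stroma. Near Tie1, an endothelial receptor, the region (chromosome 4, 118465394 to 118466301) had 0.793, 14.02 and 9.96 in rMSC, 75.8, 73.0 and 81.8 in control stroma, and 8.55 and 14.2 in Scf-GFP-positive stroma, high in control stroma alone. By rank, rMSC minus control stroma was -68.6 (adjusted p = 0.000292), which did not pass in covered bases (adjusted p = 0.18). Control stroma minus Scf-GFP-positive stroma passed in covered bases (adjusted p = 0.034). No core region lay in the loci of Pecam1, Cdh5 or Ptprc, which define endothelial and blood cells. Inside Sox9, the cartilage master factor, the percentiles were 77.2, 69.5 and 59.96 in rMSC, 66.7, 78.9 and 72.4 in control stroma, and 1.16 and 14.2 in Scf-GFP-positive stroma, again high in both cultures.

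Of 1005 listed microRNA hairpins, 23 (2.29%) had a core region within 2000 bases and 14 overlapped one, while 136 (13.5%) had a region open in all 10 libraries within that distance. The 3 hairpins of the miR-199 family printed above all overlapped core regions, which lie on 3 chromosomes, Mir199b only in part. At Mir199a-2 the percentiles were 71.5, 64.2 and 50.8 in rMSC, 87.3, 78.9 and 89.4 in control stroma, and 56.9 and 52.1 in Scf-GFP-positive stroma. At Mir199b they were 38.2, 9.66 and 9.96 in rMSC, 43.4, 53.0 and 47.5 in control stroma, and 13.1 and 26.02 in Scf-GFP-positive stroma. At Mir199a-1 they were 38.2, 74.0 and 36.2 in rMSC, 90.0, 77.1 and 86.1 in control stroma, and 33.2 and 52.1 in Scf-GFP-positive stroma. Control stroma was highest without overlap at each of the 3. The differences of rMSC from control stroma were -23.1 ± 7.13 (adjusted p = 0.0459), -28.7 ± 8.85 (adjusted p = 0.0456) and -35.0 ± 10.6 (adjusted p = 0.0423), close to the threshold, and the calls were lost in 6, 7 and 6 of the 8 fits that left out 1 library (adjusted p up to 0.146, 0.16 and 0.134). Each control stroma library and rMSC replicate 3 were among those whose removal lost all 3 calls.

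Other hairpins in or beside core regions were Mir152, Mir193a, and Mirlet7e with Mir125a at Spaca6, none of which passed between rMSC and control stroma. At Mir3075 in Zmiz1 the percentiles were 9.06, 14.02 and 14.2 in rMSC, 66.7, 49.3 and 78.3 in control stroma, and 42.6 and 46.5 in Scf-GFP-positive stroma, a difference of -52.3 ± 8.93 (adjusted p = 0.00261) between rMSC and control stroma that held in all 8 fits but not in covered bases (adjusted p = 0.224). Zmiz1, a coactivator gene, had 9 core regions assigned to it, and Rgs3 had the most with 10. An assigned region may lie outside the gene. Those of Rgs3 include the run of 6 beyond its end, and 1 of Zmiz1 starts at 25225871, before the gene (25457875 to 25666743).

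The core regions with the highest mean percentile over the 8 libraries are given as a description, since that choice leaves little room on the scale for a difference. The region at the start of Gas1, a membrane protein of growth-arrested fibroblasts (chromosome 13, 60175701 to 60178935), had 94.6, 95.9 and 96.2 in rMSC, 98.6, 96.2 and 93.0 in control stroma, and 80.3 and 89.1 in Scf-GFP-positive stroma. Its ranks in both cultures passed against Scf-GFP-positive stroma, by 10.9 ± 2.72 (adjusted p = 0.0134) for rMSC, a call lost without Scf-GFP-positive replicate 1 and in covered bases (adjusted p = 0.0806). The regions inside Irs1, an insulin receptor substrate, and 162377 bases from Akr1e1 passed in no comparison. That inside Tbx3, a T-box factor of limb mesenchyme, had 98.8, 94.4 and 98.2 in rMSC, 95.8, 93.1 and 95.1 in control stroma, and 45.7 and 66.8 in Scf-GFP-positive stroma, and the start of Unc5b, a netrin receptor, had 99.1, 97.4 and 99.2 in rMSC, 93.9, 84.9 and 96.0 in control stroma, and 68.3 and 72.6 in Scf-GFP-positive stroma, both lowest in Scf-GFP-positive stroma. Inside Gramd1b, a sterol carrier, control stroma was highest with 78.9, 84.7 and 84.8 in rMSC, 97.4, 98.1 and 97.2 in control stroma, and 84.2 and 75.8 in Scf-GFP-positive stroma, a difference of -14.8 ± 2.99 (adjusted p = 0.00614) for rMSC minus control stroma, which did not pass in covered bases (adjusted p = 0.442).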

How the data were processed

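ATAC-seq peak lists of 10 mouse stromal libraries were used, as deposited. The submitters' processing notes name BWA, MACS2 and build mm10; their versions were not given in the sources at hand. The authors called peaks for each library alone. Each deposited peak carries a fold enrichment ratio over background, a −log10 of the p-value and of the q-value, and a score that equals 10 times the −log10 q without decimals. Fold is pileup plus 1 over background plus 1, so tags at the summit were recovered as whole numbers within 0.05.

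Peaks were merged into union regions. Regions open in all 8 libraries other than Scf-GFP-negative were ranked in each library by the −log10 p of their strongest peak, and percentiles were fitted over the 3 groups with limma's moderated test with trend, with Benjamini-Hochberg adjustment over 16135 regions and a threshold of 0.05. Tested on simulated shifts, the fit recovered few of the smallest ones and most of the largest, so a region that passed in no comparison may still differ. A region was assigned to the gene that contains it or has the nearest end, which replaced the planned nearest start because starts are listed for part of the genes only. Genes, starts, promoters and microRNAs came from RefSeq (GRCm38.p6).

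Named regions were the 10 with the highest mean percentile, the 6 highest and 6 lowest differences per comparison without overlap, the genes with most core regions, the genes of 2 lists, and up to 4 genes of each other list. Regions at gene starts of listed genes and at microRNA hairpins, and the sequences shown, were chosen after their values were seen, and the core regions and gene lists with earlier results of these data known. Lists are given as counts without a test. Intervals are exact binomial and cover counting error only. Alternatives were a stricter q, summit windows, a minimum cover, equal-size lists, covered bases in place of rank, flow cell, the replicate number, and leaving out each library. Columns of samples outside the series numbered 0. Python 3.11.15, pandas 2.3.3, numpy 2.4.6, scipy 1.17.1, matplotlib 3.10.9, R 4.3.3 and limma 3.58.1 were used.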

Additional observations from a re-analysis of the deposited data

How the results depend on the processing

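The number of core regions was 4319, against 2542 with lists of equal size and 1166 where peaks had to cover 0.5 of the region; leaving out 1 library gave 4409 to 5913, the most without Scf-GFP-positive replicate 1. A q threshold and summit windows kept it within 1.5 times. The share within 1 kb of a gene start was 12.8%, against 15.1% with equal-size lists and 15.2% by distance to either gene end, the last chosen after seeing the data.

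With covered bases in place of rank, rMSC against control stroma gave 243 regions higher and 323 lower, of them 77 and 179 core regions. Control stroma against Scf-GFP-positive stroma gave 873 and 374, with 75 core regions lower, while the comparison of rMSC with Scf-GFP-positive stroma gave 1059 and 687, of them 610 and 201 core regions. Of the calls on core regions, 144 of 954, 366 of 1096 and 474 of 1267 were kept, and 65, 56 and 88 had the opposite direction. The cause was not tested. With flow cell AC99CPACXX alone, which has fewer libraries, the counts higher and lower were 76 and 70 (27 and 39 core regions), 172 and 38 (115 and 9) and 336 and 122 (194 and 27) in the same order.

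Leaving out 1 library gave, for rMSC against control stroma, 776 to 1105 regions higher and 675 to 943 lower, of them 313 to 408 and 319 to 450 core regions. For control stroma against Scf-GFP-positive stroma it gave 610 to 1394 and 335 to 1177, of them 366 to 835 and 84 to 219 core regions. In rMSC set against Scf-GFP-positive stroma it gave 855 to 1860 and 496 to 1566, of them 454 to 947 and 126 to 312. In the first comparison the counts over all regions and of core regions lower were smallest without rMSC replicate 3, and without rMSC replicate 1 all regions higher were 790 and core regions lower 330. In the others the smallest came without Scf-GFP-positive replicate 1. Without Scf-GFP-positive replicate 2 the core regions higher and lower were 470 and 131 for control stroma and 533 and 164 for rMSC. Core regions lower in control stroma were 154 without control stroma replicate 2, and those lower in rMSC 201 without rMSC replicate 3. The regions missing from the rank test, and the small number of tags in the weakest peaks, limit what can be said of weak regions.

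Correlations of deviations from the group mean were -0.026 to 0.064 for libraries with the same replicate number, and -0.064 to 0.017 for different numbers. With 2 or 3 libraries per group the deviations depend on one another, so these values cannot decide whether the numbers pair libraries. Replicate 1 of every group shared a flow cell. With a replicate block the core regions higher and lower were 432 and 490 for rMSC against control stroma, 795 and 193 for control stroma against Scf-GFP-positive stroma, and those for rMSC and Scf-GFP-positive stroma were 883 and 249. Motif windows over whole regions or 100 bases were not run, since only promoter sequence was used. None of 36 differences named by rule reversed under 533 alternatives, and 18 of those lost the call.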
